A study of Mus musculus with 33 samples.

Results

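Neutrophil granule genes were followed in RNA-seq libraries of mouse microglia, as 10 genes listed in the order in which a maturing neutrophil makes them. The primary (azurophil) stage was represented by Elane, Mpo, Prtn3 and Ctsg, the secondary (specific) stage by Ltf, Camp, Ngp and Lcn2, and the tertiary (gelatinase) stage by Mmp8 and Mmp9. All 10 were found among the 54146 gene identifiers of the count tables. The list was taken as given, by name.

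The 33 libraries came from microglia of C57BL/6 mice, isolated without enzymes and sorted by flow cytometry, in 10 groups. A germline Irf8 knockout (IRF8KO) was set against WT in 4 libraries each from mice aged 3 months and in 3 each from mice aged 9 months. The set aged 9 months also held the 5xFAD line, with Irf8 (5xFAD) and without it (5xFAD/IRF8KO), again in 3 libraries each. In this line the neuronal Thy1 promoter drives human transgenes mutated as in familial Alzheimer's disease. Mice aged 3 months that lack the transcription factor BATF3 (Batf3KO) gave 3 libraries, as did a WT group of their own. The conditional knockout, also aged 3 months, gave 3 libraries with a floxed Irf8 allele (flox) and 4 that also carried the tamoxifen-inducible Cx3cr1CreERT2 (Cre), with tamoxifen given to both in the second postnatal week. Per the series' text the cells of the conditional knockout were sorted as YFP-positive, with a Rosa26LSL-EYFP reporter. The germline knockout allele is carried by every cell, blood-forming cells included, whereas the Cre acts in cells with an active Cx3cr1 gene. Groups said below to be without Irf8 are those with the germline knockout, where Irf8 RNA was reduced but still present. Each library is taken as a separate mouse, since the labels describe preparation brain by brain.

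Neutrophil granules are filled in sequence as the cell matures in the bone marrow. Serine proteases and myeloperoxidase of the primary granules are transcribed in promyelocytes, the antimicrobial proteins of the secondary granules in myelocytes and metamyelocytes, and the gelatinases of the tertiary granules in band cells, and the primary programme is switched off as the secondary one begins. A mature neutrophil therefore carries the proteins of all stages but little messenger RNA for the primary ones. The secondary genes too are transcribed mainly before the mature stage. IRF8 is known in the bone marrow as a factor that favours monocyte and dendritic fates over the neutrophil fate, and healthy brain tissue holds very few neutrophils.

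The promoters of Elane and Prtn3, neighbouring primary granule genes, and of Ngp and Ltf, secondary granule genes on chromosome 9, are shown as an early and a late pair: the first were the most closely proportional primary genes, and the second were at or near 0 in most WT groups and abundant in WT of the IRF8KO experiment at 3 months. The sequences are the 250 bases before the RefSeq start on GRCm38.p6, written 5′ to 3′ on the strand of the gene. Capitals mark matches, on either strand, to GAGGAA (the core bound by ETS factors of the PU.1 type), AACGG (the core bound by MYB) and TTGCNNAA (a form of the C/EBP motif, with any base at N).
Elane, chr10:79886062-79886311, plus strand: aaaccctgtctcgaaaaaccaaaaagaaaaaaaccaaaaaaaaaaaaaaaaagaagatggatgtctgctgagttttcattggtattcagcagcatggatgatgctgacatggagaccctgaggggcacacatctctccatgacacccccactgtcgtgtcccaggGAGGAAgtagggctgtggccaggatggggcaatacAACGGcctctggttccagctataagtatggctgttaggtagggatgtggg
Prtn3, chr10:79879417-79879666, plus strand: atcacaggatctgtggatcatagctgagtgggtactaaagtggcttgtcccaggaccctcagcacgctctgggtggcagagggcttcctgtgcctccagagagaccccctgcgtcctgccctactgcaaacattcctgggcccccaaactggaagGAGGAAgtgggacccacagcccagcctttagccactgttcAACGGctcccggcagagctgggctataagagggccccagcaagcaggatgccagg
Ngp, chr9:110419558-110419807, plus strand: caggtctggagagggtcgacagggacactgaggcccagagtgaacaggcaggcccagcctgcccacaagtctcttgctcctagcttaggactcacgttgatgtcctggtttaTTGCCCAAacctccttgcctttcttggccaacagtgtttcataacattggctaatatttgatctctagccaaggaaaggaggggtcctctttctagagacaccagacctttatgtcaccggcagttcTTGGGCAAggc
Ltf, chr9:111019042-111019291, plus strand: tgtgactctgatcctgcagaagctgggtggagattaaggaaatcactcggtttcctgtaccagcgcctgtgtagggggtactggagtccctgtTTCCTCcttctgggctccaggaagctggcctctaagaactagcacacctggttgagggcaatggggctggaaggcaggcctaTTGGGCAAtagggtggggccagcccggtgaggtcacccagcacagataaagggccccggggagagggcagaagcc
The Elane and Prtn3 promoters held the same pair of motifs, GAGGAA with its first base 85 and 95 bases before the start, and AACGG 50 and 55 bases before it. Ngp held TTGCNNAA at 138 and 11 bases before the start, and Ltf at 75. RefSeq gave promoters for 9 of the 10 members, all but Mmp9. TTGCNNAA was found in 4 of the 9 (Ltf, Ngp, Lcn2 and Mmp8) and in 9.56% of 32851 promoters of the same length. GAGGAA was found in 7 of the 9 (all but Ngp and Camp) against 23.2% of all promoters, and AACGG in Elane and Prtn3 alone against 14.5%. A RUNX core, TGTGGT, was found in Ctsg against 14.1% of all promoters. Also searched, by name, were the ETS-IRF composite element, through which IRF8 binds with PU.1, and the interferon response element. They matched none of the 9, and 2.30% and 2.98% of all promoters. These matches describe letters in a window and nothing about binding.

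The genes lie on GRCm38 as annotated by GENCODE M21, in which all 10 are protein-coding. Elane (chromosome 10, 79886247 to 79888215) starts 3.1 kb after the end of Prtn3 (79874476 to 79883174), with no protein-coding gene between them. Mpo is on chromosome 11 (87793581 to 87804413) and Ctsg on chromosome 14 (56099881 to 56102574). Chromosome 9 holds Camp (109847379 to 109849617), Ngp (110419747 to 110423012), Ltf (111019271 to 111042767) and, far from them, Mmp8 (7558456 to 7568485). Camp and Ngp are 570.1 kb apart, and Ngp and Ltf 596.3 kb. Chromosome 2 holds Lcn2 (32384633 to 32388252) and Mmp9 (164940780 to 164955850). Values are counts over whole genes, ignoring strand, so those of Mpo, which overlaps Gm11505, and of Prtn3, which overlaps Plppr3, are uncertain to that extent.

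Gene counts per library ran from 605376 to 18357762, lowest in WT at 9 months (605376 to 5757466). Irf8 was at 241 to 313 CPM (counts relative to the library total after TMM scaling over all libraries) in WT and 95.4 to 172 CPM in IRF8KO at 3 months, and at 543 to 650 CPM in WT and 14.9 to 126 CPM in IRF8KO at 9 months, with no overlap at either age. The library labelled Cre replicate 1 had 1050 CPM of Irf8, within the flox range and against its label. Every animal is labelled female, but with a minimum of 10 CPM 13 libraries held Y-linked transcripts without Xist, 3 held both, 16 held Xist alone and 1 held neither. In the IRF8KO experiment at 3 months, 3 of the 4 WT and all 4 IRF8KO libraries were of the first kind. At 9 months all 3 WT libraries were, but only 1 each of IRF8KO, 5xFAD and 5xFAD/IRF8KO. All 3 libraries of WT of the Batf3KO experiment held Xist alone. The libraries that held both were 1 of IRF8KO and 2 of 5xFAD/IRF8KO at 9 months. The part of sex in the granule levels was not tested. Microglial markers were present in every group, at a summed 20548 to 49641 CPM for 8 genes in the 6 groups other than WT of the IRF8KO experiment at 3 months (8639 to 23739) and the 3 groups without Irf8 (2985 to 7159). Those same 4 groups stood apart from the other 6 in RNA of other cells: 7 red blood cell genes summed to 9116 to 176845 CPM in them and to at most 1648.5 CPM elsewhere, and 10 markers of mature neutrophils to 5645 to 93845 CPM against 143 to 1390.3 CPM.

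**Figure D1:**
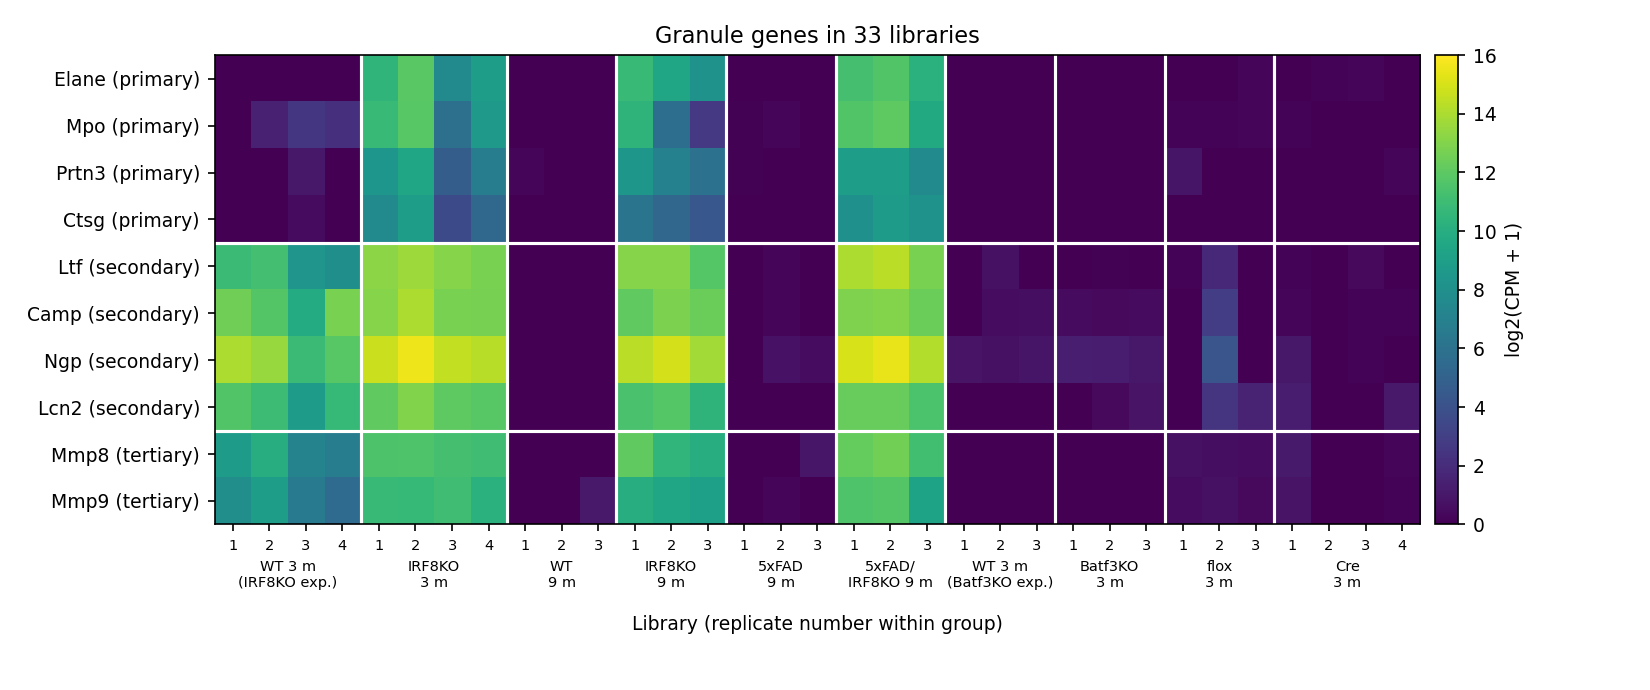
Levels of the 10 granule genes in all 33 libraries, as log2(CPM + 1) from dark (0) to light, with genes in rows by stage and libraries in columns by group and replicate number. The secondary and tertiary rows are light in WT of the IRF8KO experiment at 3 months and in the 3 groups without Irf8. The primary rows are raised in those 3 groups alone, though dark in places, as for Mpo in IRF8KO replicate 3 at 9 months (5.24 CPM). All rows are dark in the other 6 groups, apart from faint secondary rows in flox replicate 2 (Ngp at 18.0 CPM).

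At 3 months the primary granule genes were at or near 0 in WT and ranged from 11.3 to 3856 CPM in IRF8KO libraries. Secondary and tertiary genes were already abundant in WT of this experiment and were higher in IRF8KO by smaller factors. In edgeR's quasi-likelihood test with Benjamini-Hochberg adjustment, which gives all adjusted p-values below unless another tool is named, 7 of the 10 genes rose (adjusted p under 0.05), 4 of 4 primary, 1 of 4 secondary and 2 of 2 tertiary. Over all 13121 genes tested, 4.15% were called higher. The 4 primary genes passed the filter on low counts only through the IRF8KO libraries, so their count is a description. In bulk RNA a higher level from more cells of a type and one from more RNA per cell cannot be told apart.

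Elane encodes neutrophil elastase. It had 0 counts in all 4 WT libraries and 1434, 3856, 196 and 472 CPM in IRF8KO replicates 1 to 4 (mean 1489.7 ± 1664.5, SD, n = 4). Every knockout library thus held the transcript, with a 19.6-fold span between the highest and the lowest. Elane was at least 17394-fold higher in IRF8KO, counted against a floor of 3 counts over the WT group (adjusted p 0.00156).

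Mpo encodes myeloperoxidase, the enzyme that makes hypochlorous acid in the phagosome. It was at 0, 1.80, 4.73 and 3.73 CPM in WT libraries and at 1734, 3712, 58.5 and 409 CPM in knockout libraries. The trace in WT rested on 18, 75 and 27 counts in replicates 2 to 4, and no WT library came near the lowest knockout library. The log2 change of Mpo was 9.02 (SE 1.29), a rise that passed with an adjusted p of 0.00254.

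Prtn3 encodes proteinase 3, a protease similar to elastase. It was at 342, 684, 24.9 and 109 CPM in IRF8KO, and in WT only replicate 3 held any, at 1.01 CPM from 16 counts. Ctsg, which encodes cathepsin G, was at 193, 480.0, 11.3 and 41.2 CPM in IRF8KO and had 6 counts in the same WT library. Both rose, Prtn3 by 9.56 (SE 1.29, adjusted p 0.00218) and Ctsg by 10.10 (SE 1.39, adjusted p 0.00230). For each of the 4 primary genes IRF8KO replicate 2 was the highest library and replicate 3 the lowest. All 4 calls were kept whichever library was left out, with adjusted p of at most 0.0107. They were lost with limma voom and quality weights, where the adjusted p was 0.0504 for Elane, 0.177 for Mpo, 0.165 for Prtn3 and 0.232 for Ctsg.

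Among the secondary genes, Ltf rose. It encodes lactoferrin, an iron-binding antimicrobial protein, and was at 1919.6, 2365, 318 and 248 CPM in WT replicates 1 to 4 against 9342, 12960.1, 8565 and 6997 CPM in the knockout libraries. The groups did not overlap, and the log2 change was 2.93 (SE 0.73, adjusted p 0.0315). The call depended on each knockout library, with an adjusted p of 0.0572 to 0.0821 when 1 of the 4 was left out.

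The other secondary genes were higher on average without passing the test. Ngp, which encodes neutrophilic granule protein, a cystatin-like protein of mouse neutrophils, was at 16510.2, 11808, 1907 and 3732 CPM in WT libraries and at 26542, 49005, 23620.6 and 20229 CPM in knockout libraries (1.77, SE 0.71, adjusted p 0.151). Lcn2, which encodes lipocalin 2, a protein that binds bacterial siderophores, was at 3201, 2018, 456 and 1719 CPM in WT libraries and at 4315, 7879, 4209 and 3626 CPM in knockout libraries (1.39, SE 0.56, adjusted p 0.152). Neither gene's groups overlapped. Camp, which encodes the cathelicidin antimicrobial peptide, was the 1 member whose groups overlapped (10.9% of all genes lay higher in every knockout library), with 5966, 3364, 904 and 7048 CPM in WT against 8621, 17057, 7054 and 6769 CPM without Irf8 (1.15, SE 0.63, adjusted p 0.296). WT replicate 4 exceeded the lowest knockout library for this gene. From the lowest to the highest library, WT spanned a larger fold than IRF8KO in all 4 secondary genes, and WT replicate 3 was the lowest for Camp, Ngp and Lcn2.

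Both tertiary genes rose. Mmp8, which encodes neutrophil collagenase, was at 453, 989, 142 and 108 CPM in WT libraries and at 3004.5, 3054, 2461 and 2177 CPM in knockout libraries (2.63, SE 0.64, adjusted p 0.0287). Mmp9, which encodes gelatinase B, was at 235.5, 469, 93.5 and 48.3 CPM in WT libraries and at 1768.5, 1695, 2158 and 1175 CPM in knockout libraries (2.97, SE 0.62, adjusted p 0.0143). The knockout libraries were closely spaced here, with a 1.40-fold span for Mmp8, and the library lowest in every primary gene, replicate 3, was the highest for Mmp9. The Mmp8 call was lost without any 1 of the knockout libraries (adjusted p 0.0548 to 0.0821) or without WT replicate 1 (0.0518). The Mmp9 call was kept in each case.

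By stage, the median log2 change at 3 months was 9.83 for the primary, 1.58 for the secondary and 2.80 for the tertiary genes, beside -0.02 over all genes tested. The primary median is the same with Elane set at its lower bound.

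**Figure D2:**
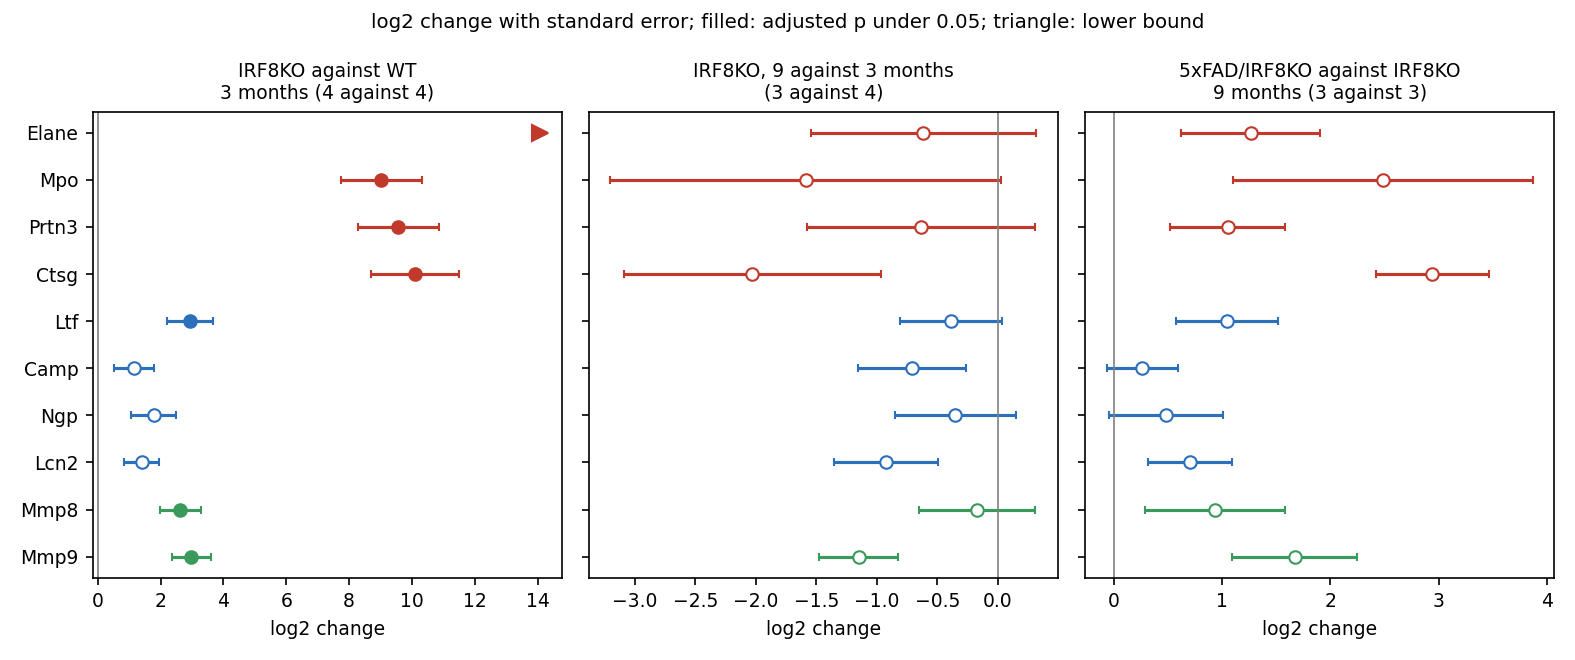
log2 change of each granule gene in 3 comparisons, with standard errors (bars), primary genes in red, secondary in blue and tertiary in green; filled points passed an adjusted p of 0.05 and the triangle is the lower bound for Elane. At 3 months primary genes lie at 9 or more and the others between 1.15 and 2.97, while no point is filled in the comparisons of IRF8KO at 9 with 3 months and of 5xFAD/IRF8KO with IRF8KO.

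Other genes of the same stages, taken from a fixed list, were counted at 3 months as well. Of 5 further primary granule genes 3 rose, led by Ms4a3 (6.54, SE 1.19, adjusted p 0.00797), a signalling protein of granulocyte-monocyte progenitors, and Fcnb (5.21, SE 0.63, adjusted p 0.00156), a ficolin of early granules. Prss57, a serine protease of primary granules, rose too, whereas Cd63 and Srgn, which many cells express, did not pass. Of 6 further secondary genes 3 rose, led by Cybb (3.77, SE 0.49, adjusted p 0.00178), the oxidase subunit that macrophages also express, and Cd177 (2.83, SE 0.65, adjusted p 0.0229). Of 5 further tertiary and secretory genes 2 rose, Mmp25 (4.61, SE 0.89, adjusted p 0.0103), a membrane metalloproteinase, and Adam8 (3.76, SE 0.77, adjusted p 0.0129). The list medians were 4.86, 2.58 and 2.00.

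Genes that act on the granule proteases or drive granulopoiesis were counted in the same way. Of 5 activators and inhibitors tested, Serpinb1a, an inhibitor of elastase and cathepsin G, rose by 2.66 (SE 0.64, adjusted p 0.0269) and Timp2, a metalloproteinase inhibitor, fell by 1.17 (SE 0.30, adjusted p 0.0365). Of 9 regulators 3 rose. Gfi1, a repressor needed for neutrophil commitment, rose by 4.34 (SE 1.14, adjusted p 0.0378), Cebpe, the factor that switches on secondary granule genes, by 2.83 (SE 0.69, adjusted p 0.0288), and Myb, a factor of immature cells, by 2.40. Cebpa, Cebpb, Cebpd, Spi1, Runx1 and Cbfb did not pass.

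Markers of mature neutrophils were abundant in both groups. Of 10, Trem1 (3.01, SE 0.83, adjusted p 0.0466) and Csf3r (1.78, SE 0.28, adjusted p 0.00417) rose, with a list median of 1.16, and Ly6g (0.18) and S100a8 (0.90) were among those that did not pass. Their sum was 30505.7, 28200.4, 5645 and 48820 CPM in WT and 51680 CPM, 93845, 37353 and 35324 CPM in IRF8KO, so the ranges overlapped. WT replicate 4 thus held more RNA of these markers than 2 knockout libraries did. Elane had 0 counts in all 4 WT libraries, and the part of mature neutrophils in the granule levels was not tested.

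Markers of other cells that can transcribe granule proteases were measured as well. Genes of basophils and mast cells, 7 in all and none of them tested, summed to 0, 295.7, 27.4 and 1029.3 CPM in IRF8KO replicates 1 to 4 and to at most 14.3 CPM in WT. Elane was at 1434, 3856, 196 and 472 CPM in the same IRF8KO libraries. Haematopoietic progenitor genes, 6 in all with 0 of 5 tested called, summed to 83.8 to 169 CPM in IRF8KO and 112 to 162 CPM in WT. Monocyte genes, with 0 of 6 called, summed to 462 to 1775 CPM in IRF8KO and 173 to 572 CPM in WT. Eosinophil genes, with 0 of 4 tested called, summed to 50.5 to 105.9 CPM in IRF8KO and 36.3 to 60.8 CPM in WT. Cell cycle genes summed to 343.6, 745.1, 216.7 and 177.6 CPM in IRF8KO and 97.9 to 306 CPM in WT, and 1 of 6 rose, Top2a (2.35, SE 0.63, adjusted p 0.0408). IRF8KO replicate 2, the highest library for all 4 primary genes, was also the highest for cell cycle, monocyte and mature neutrophil genes. The part of these cells in the granule levels was not tested.

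Of the remaining marker lists at 3 months, 4 of 8 microglial genes fell, led by Sall1 (-4.85, SE 1.16, adjusted p 0.0268) and P2ry12 (-3.04, SE 0.40, adjusted p 0.00199). Of 5 border macrophage genes 2 rose, Mrc1 (4.47, SE 0.43, adjusted p 0.000412) and Pf4 (3.97, SE 0.44, adjusted p 0.000908). B cell genes fell in 2 of 5, Cd79b (-2.15, adjusted p 0.0325) and Cd79a (-1.43, adjusted p 0.0425), and neuronal genes in 1 of 4, Syt1 (-2.86, adjusted p 0.0115). None of the tested red blood cell (7), oligodendrocyte (5), astrocyte (5), endothelial (3) or T and NK cell (3) genes was called. Their part in the granule levels was not tested either.

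At 9 months all 3 stages separated IRF8KO from WT, because the WT libraries of that age held almost no granule RNA of any stage. In WT the 10 genes together had 2 counts, 1 of Prtn3 in replicate 1 and 1 of Mmp9 in replicate 3. All 10 rose in IRF8KO, beside 19.6% of 14604 genes tested called higher. All 10 passed the filter on low counts only through libraries without Irf8, so this count too is a description.

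Of the primary genes at 9 months, Elane was at 1832, 712 and 289 CPM in IRF8KO replicates 1 to 3, at least 3124-fold above WT (adjusted p 0.00015). Mpo was at 1377, 53.9 and 5.24 CPM, at least 1584-fold above WT (adjusted p 0.00599). Prtn3 was at 350.1, 130.4 and 62.4 CPM, with a ratio of 1815 to the single WT count (exact 95% counting interval 326 to 71716, adjusted p 1.73e-05). Replicate 1 was the highest and replicate 3 the lowest for each of these genes, and Mpo spanned 263-fold within the group. Ctsg was at 71.1, 38.7 and 19.5 CPM, at least 143-fold above WT (adjusted p 0.000219).

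Secondary genes were the most abundant here as well. Ltf was at 8613, 8692 and 3564 CPM (at least 23006-fold above WT, adjusted p 3.57e-06). Camp was at 4441, 7434.5 and 5473 CPM (at least 19125-fold, adjusted p 8.01e-07). The highest of the 10 was again Ngp, at 20625, 32704 and 14015 CPM (at least 74241-fold, adjusted p 4.32e-06). Lcn2 was at 2762, 3459.9 and 1379 CPM (at least 8380.1-fold, adjusted p 8.57e-06). In all 4 the highest library was replicate 2, not the replicate 1 that led the primary genes.

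Of the tertiary genes at 9 months, Mmp8 was at 4366, 1471 and 984 CPM (at least 7519-fold, adjusted p 3.18e-05). Mmp9 was at 986, 686 and 512 CPM, with a ratio of 7234 to the single WT count (exact 95% counting interval 1298 to 285740, adjusted p 1.08e-05). Both followed the order of the primary genes, with replicate 1 the highest. With genes at 0 in WT taken at their lower bound, and Prtn3 and Mmp9 at their ratio to a single count, the median log2 change was 10.73 for the primary, 14.36 for the secondary and 12.85 for the tertiary stage, beside 0.25 over all genes.

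The further lists were mostly higher at 9 months too. Of the further primary genes 5 of 5 rose, with Fcnb at least 1196-fold (adjusted p 2.6e-06) and Ms4a3 at least 477-fold higher (adjusted p 2.01e-05). Further secondary genes rose in 4 of 6, with Chil3, a chitinase-like protein, at least 31541-fold higher (adjusted p 1.03e-05) and Cd177 at least 4838-fold (adjusted p 1.93e-05). Of the tertiary and secretory genes 4 rose and 1 fell, with the formyl peptide receptor genes Fpr1 at least 1010.1-fold (adjusted p 0.000131) and Fpr2 at least 242-fold higher (adjusted p 6.32e-05). Among 5 activators and inhibitors 3 rose and 2 fell, with the elastase inhibitor genes Serpinb1a at least 1921-fold (adjusted p 4.98e-06) and Slpi at least 1600.0-fold higher (adjusted p 4.06e-05). Of the 9 regulators Gfi1 (at least 79.1-fold, adjusted p 0.00111), Cebpe (at least 145-fold, adjusted p 0.000185) and Myb rose, and Cebpa, a factor of early myeloid cells that microglia also express, fell by 3.17.

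Markers of mature neutrophils rose in 8 of 10 at 9 months, with S100a9 at a ratio of 140590 to 1 WT count (exact 95% counting interval 25232 to 5552900, adjusted p 8.01e-07) and S100a8 at a ratio of 103590 to 2 WT counts (28677 to 855400). Their sum was 29120.1 to 48100.2 CPM in IRF8KO and 558 to 634 CPM in WT. Nearly every other cell type's list moved too. Red blood cell genes rose in 6 of 6, with Hbb-bt higher by 13.49 (SE 1.55). Monocyte genes rose in 3 of 6, with Ly6c2 at least 1487-fold (adjusted p 1.91e-05) and Plac8 at least 348-fold higher (adjusted p 2.17e-05). Cell cycle genes rose in 5 of 6, with Ccnb1 higher by 8.05 (SE 0.53) and Birc5 by 7.57 (SE 0.63). Brain cell genes rose in 4 of 5 for oligodendrocytes (Mobp by 8.47) and 4 of 4 for neurons (Snap25 by 9.70, Tubb3 at least 116-fold). Astrocyte genes rose in 5 of 5 (Aldoc by 7.50, Aqp4 at a ratio of 642 to 2 WT counts). Endothelial genes rose in 3 of 4 (Ly6c1 at least 39.7-fold, Cldn5 at least 36.4-fold). The sum of the 5 listed endothelial genes was nevertheless lower in IRF8KO (18.7 to 53.1 CPM) than in WT (103.3 to 165.6 CPM).

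Border macrophage genes rose in 3 of 5 (Pf4 by 7.71, Cd163 by 5.33), and single genes did so among B cells (Cd79a, at least 144-fold, of 3 tested), T and NK cells (Nkg7, at least 195-fold, of 2) and eosinophils (Ear2, at least 121-fold, of 3, with Siglecf and 1 other lower). Progenitor genes were mixed, with Kit at least 152-fold higher (adjusted p 0.0111) and Sox4, which fell by 4.54 (SE 1.07, adjusted p 0.00782), among 1 higher and 2 lower of 5. Microglial genes fell in 7 of 8, with Sall1 at -5.69 (SE 1.35) and P2ry12 at -5.05 (SE 0.38). None of the basophil and mast cell genes was tested, and their sum was 22.4 CPM in IRF8KO replicate 1 and 0 in replicates 2 and 3. The part of each of these cell types in the granule levels was not tested.

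The same pattern held in mice that carried the 5xFAD transgenes. In 5xFAD libraries with Irf8, Elane, Ctsg and Lcn2 had 0 counts, and the other 7 genes had 1 to 5 counts over the 3 libraries. Between 5xFAD and WT at 9 months, none of the 10 genes was called, none had an unadjusted p under 0.05, and DESeq2 and limma voom called none, beside 1.99% of all genes called in either direction. In 5xFAD/IRF8KO against 5xFAD all 10 rose, beside 18.0% of all genes called higher, again with a filter passed only through libraries without Irf8.

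In 5xFAD/IRF8KO Elane was at 2538.5, 3294 and 1171 CPM, at least 15176-fold above 5xFAD (adjusted p 7.35e-05). Mpo was at 3247, 4189 and 854 CPM (ratio 27014 to 2 counts, exact 95% counting interval 7478 to 223070, adjusted p 0.00210). Ctsg was at 259, 468 and 291 CPM (at least 2206-fold, adjusted p 3.38e-05). All libraries of this group thus held these transcripts at 202 CPM or more. Prtn3 was at 470.1, 487 and 202 CPM (ratio 7564 to 1 count, exact 95% counting interval 1357 to 298780, adjusted p 5.94e-06).

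Ltf reached 16508, 20709.9 and 7151 CPM in the same libraries, and Ngp 32966, 45424 and 18624.5 CPM. Camp was at 7673, 8425 and 5342 CPM and Lcn2 at 4942, 5005 and 2823 CPM. Replicate 2 was the highest and replicate 3 the lowest in all 4 secondary genes. Mmp8 was at 4834, 6313.5 and 2253 CPM, and Mmp9 at 3139, 3411 and 615 CPM, in the same order. Adjusted p-values against 5xFAD were 5.02e-07 to 5.42e-06 for the secondary genes, 1.94e-05 for Mmp8 and 3.92e-06 for Mmp9.

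Within the knockout, the presence of 5xFAD was compared at 9 months. All 10 genes were higher on average in 5xFAD/IRF8KO than in IRF8KO, and none passed the test, beside 0.164% of all genes called. At an unadjusted p under 0.05, reached by 12.7% of all genes, there were 2 of the 10, Ctsg (2.94, SE 0.52, p 0.00044, adjusted p 0.0946) and Mmp9 (1.67, SE 0.58, p 0.0132, adjusted p 0.238). Ctsg was the 1 gene of the 10 whose groups did not overlap, beside 11.1% of all genes, at 43.1 ± 26.1 CPM in IRF8KO and 339 ± 113 CPM in 5xFAD/IRF8KO (SD, n = 3 each). DESeq2 called Ctsg (adjusted p 0.000444), limma voom called none, and edgeR without a filter on low counts called 5 (Elane, Mpo, Ctsg, Ltf and Mmp9). Without IRF8KO replicate 1, Ctsg was called at 3.50 (adjusted p 0.046). The other changes ran from 0.26 for Camp to 2.48 for Mpo, with stage medians of 1.87, 0.59 and 1.30.

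The 2 ages of the germline knockout were set side by side to see whether the stages changed together. All 10 genes were lower at 9 than at 3 months and none passed the test, beside 0.703% of all genes called. The changes ran from -0.17 for Mmp8 to -2.03 for Ctsg (SE 1.06, adjusted p 0.436), with stage medians of -1.11, -0.55 and -0.66. Mmp9 was the 1 gene of the 10 with an unadjusted p under 0.05, beside 14.6% of all genes (-1.15, SE 0.32, p 0.00576, adjusted p 0.123), and its groups did not overlap. Nor did those of Lcn2 (-0.93, SE 0.43, adjusted p 0.363), and over all genes 18.5% did not overlap in either direction. Mmp9 was called by DESeq2 (adjusted p 0.036) and without a filter on low counts (0.04), and limma voom called none. Without IRF8KO replicate 2 at 3 months, Elane and Prtn3 turned to 0.44 and 0.20. Each age has a WT group of its own, and age cannot be told apart from any difference in preparation between the 2 ages.

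The knockout effects of both ages, each against its own WT, were tested for a difference. Of the 10 genes 6 differed, all with the larger effect at 9 months, beside 18.0% of 15512 genes that differed in that direction. They were the 4 secondary genes, Ltf (adjusted p 2.35e-05), Camp (6.05e-06), Ngp (6.64e-06) and Lcn2 (6.64e-06), and the 2 tertiary genes, Mmp8 (4.83e-05) and Mmp9 (6.9e-05). For the 4 primary genes the test says little, since WT was at or near 0 at both ages. None was called (adjusted p 0.440 or more, and none with an unadjusted p under 0.05), and Mpo was called without a filter on low counts (adjusted p 0.000584). No size is given for these differences because WT at 9 months was at or near 0 counts. The levels behind them were those of WT: the secondary genes had means of 1213 to 8489.5 CPM in WT at 3 months and 0 counts in WT at 9 months, while primary genes were at or near 0 in WT of both ages.

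The WT groups of the same age were therefore compared across experiments. WT of the Batf3KO experiment at 3 months had 8 counts of Ltf, 12 of Camp and 28 of Ngp over 3 libraries and 0 of the other 7 genes. Of the 7 members that could be tested, all 7 were higher in WT of the IRF8KO experiment, beside 26.5% of all genes called higher. They passed the filter only through WT of the IRF8KO experiment, so this count is a description. Ltf differed by 12.80 (SE 1.53), Camp by 14.07 (SE 1.29) and Ngp by 13.85 (SE 1.19). Lcn2 was at least 23233-fold, Mmp8 at least 5315-fold and Mmp9 at least 2659.9-fold higher. Mpo was the 1 primary gene tested, at least 32.2-fold higher (adjusted p 0.0089) although its groups overlapped at 0. That call was lost without replicate 1 of the other WT group (adjusted p 0.0507). With any of replicates 2 to 4 of WT of the IRF8KO experiment left out, Mpo failed the filter and was not tested. Elane, Prtn3 and Ctsg were too low in both groups to be tested.

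**Figure D3:**
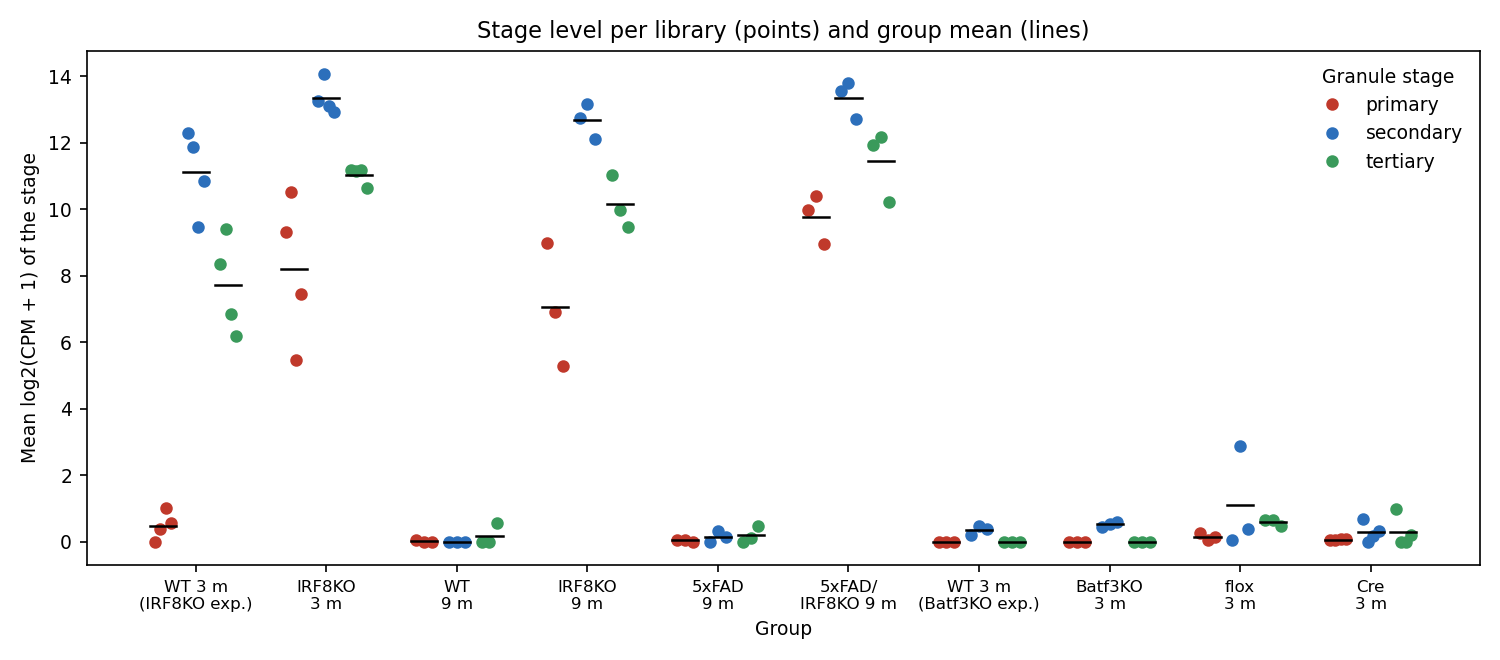
Mean log2(CPM + 1) of the members of each stage (vertical axis), with 1 point per library and a line at the group mean, for the 10 groups. Secondary and tertiary genes are raised in 4 groups and primary genes in the 3 without Irf8, with group means of 8.18, 7.06 and 9.77 against 0.48 in WT of the IRF8KO experiment at 3 months.

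The stages were set against each other within each library, as the mean log2(CPM + 1) of the primary genes minus that of the secondary genes. Where both stages are well above 0, this difference does not depend on how much granule RNA a library holds in all. In WT the primary genes were at or near 0, so there it largely follows the secondary level. WT replicate 1, for example, had 0.0 for the primary and 12.28 for the secondary genes. It was -12.28, -11.49, -8.47 and -10.28 in WT at 3 months and -3.94, -3.54, -7.65 and -5.47 in IRF8KO at 3 months. At 9 months it was -3.76, -6.27 and -6.82 in IRF8KO and -3.58, -3.40 and -3.76 in 5xFAD/IRF8KO. All 10 libraries without Irf8 lay above all 4 WT libraries, and the 5xFAD/IRF8KO libraries were the most alike. The group means were -10.63 ± 1.66 (n = 4), -5.15 ± 1.86 (n = 4), -5.62 ± 1.63 (n = 3) and -3.58 ± 0.18 (n = 3), each with its SD. The WT value moves with the pseudocount, to -13.13 at 0.1. The other 6 groups held too few counts for the measure.

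To compare genes per length, levels were also expressed as TPM (counts per annotated exon length, scaled to a common sum). On this scale Ngp was the highest of the 10 genes in each of the 4 groups, at a mean of 10237 TPM in WT at 3 months, 43064 TPM in IRF8KO at 3 months, 34251.5 TPM in IRF8KO at 9 months and 50563.6 TPM in 5xFAD/IRF8KO. Camp followed, at 8129.7, 22767, 14733 and 17972 TPM in the same groups. Elane was the highest primary gene in each group without Irf8, at 2390 TPM, 1901 TPM and 4536 TPM. Prtn3 was lower by about an order of magnitude, at 267.5, 208 and 426 TPM. These orders are descriptions, since the spread between libraries was wide.

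The primary genes took a small part of the granule RNA even where they were present. They made up 5.65%, 7.62%, 0.699% and 2.28% of the summed TPM of the 10 genes in IRF8KO replicates 1 to 4 at 3 months. The share was 8.20%, 2.03% and 1.66% in IRF8KO at 9 months and 7.99%, 8.15% and 6.48% in 5xFAD/IRF8KO. In WT at 3 months it was 0%, 0.00327%, 0.0750% and 0.00829%, below every library without Irf8. Secondary genes made up 96.6% to 99.5% in WT and 85.1% to 96.1% in the groups without Irf8. All 10 genes together took 0.364% to 2.36% of gene counts in WT at 3 months, 4.30% to 8.75% in IRF8KO at 3 months, 3.15% to 4.95% in IRF8KO at 9 months and 3.96% to 9.08% in 5xFAD/IRF8KO.

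**Figure D4:**
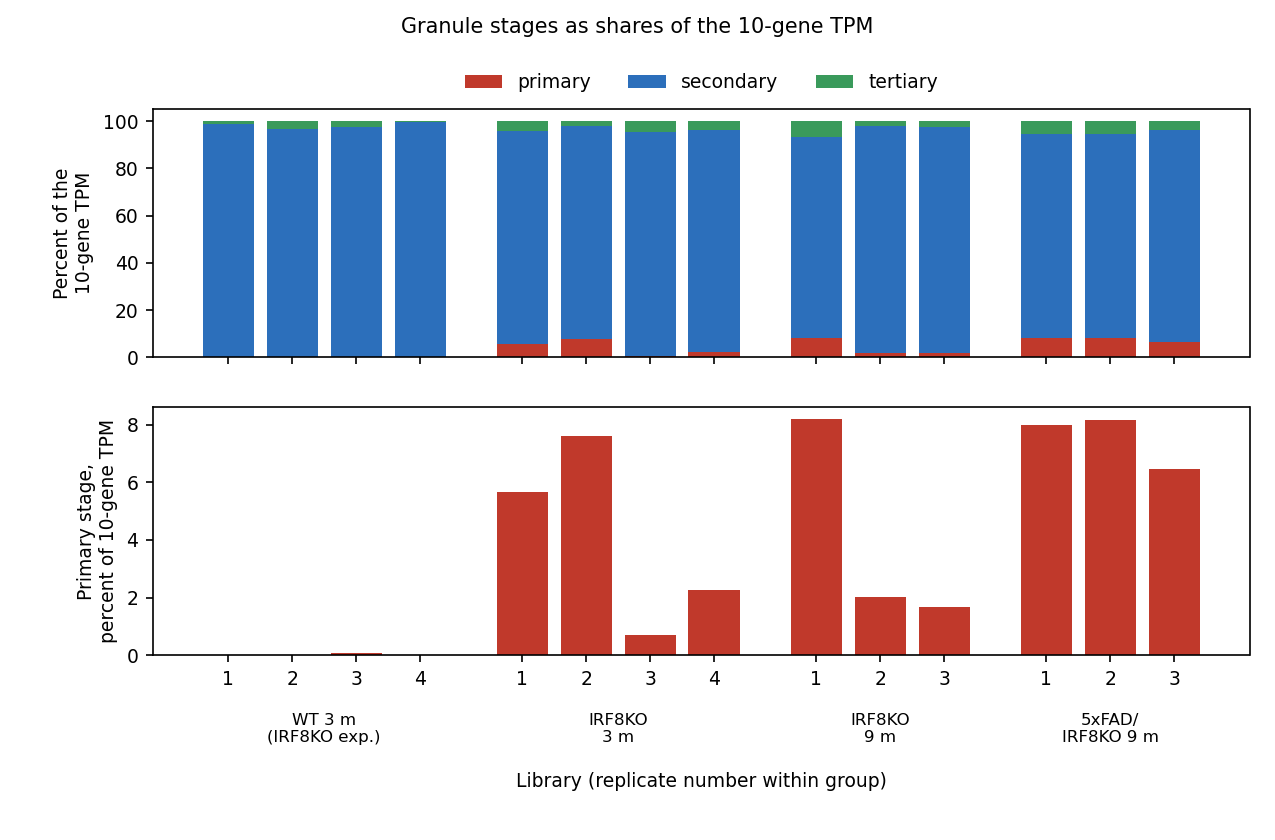
Shares of the 3 stages in the summed TPM of the 10 genes (upper panel, percent, 1 stacked bar per library) and the primary share alone on its own scale (lower panel, percent), in the 4 groups with granule RNA. The primary share is between 0.699% and 8.20% in the 10 libraries without Irf8 and at most 0.0750% in WT.

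The 4 primary genes did not keep 1 fixed proportion to each other. Prtn3 stayed closest to Elane, with a TPM ratio of 0.0719 to 0.136 over the 10 libraries without Irf8. The ratio of Ctsg to Elane ran from 0.0370 to 0.236, with the highest values in 5xFAD/IRF8KO replicates 2 and 3 (0.135 and 0.236). Mpo departed most. Its ratio to Elane was 0.348, 0.277, 0.0856 and 0.249 in IRF8KO at 3 months and 0.368, 0.365 and 0.210 in 5xFAD/IRF8KO, but 0.216, 0.0218 and 0.00521 in IRF8KO at 9 months. Replicates 2 and 3 of the last group therefore held Elane with little Mpo. Prtn3 and Elane are the neighbours on chromosome 10 whose promoters are printed above, and the counts of Prtn3 include any reads of Plppr3 that fall on its exons.

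**Figure D5:**
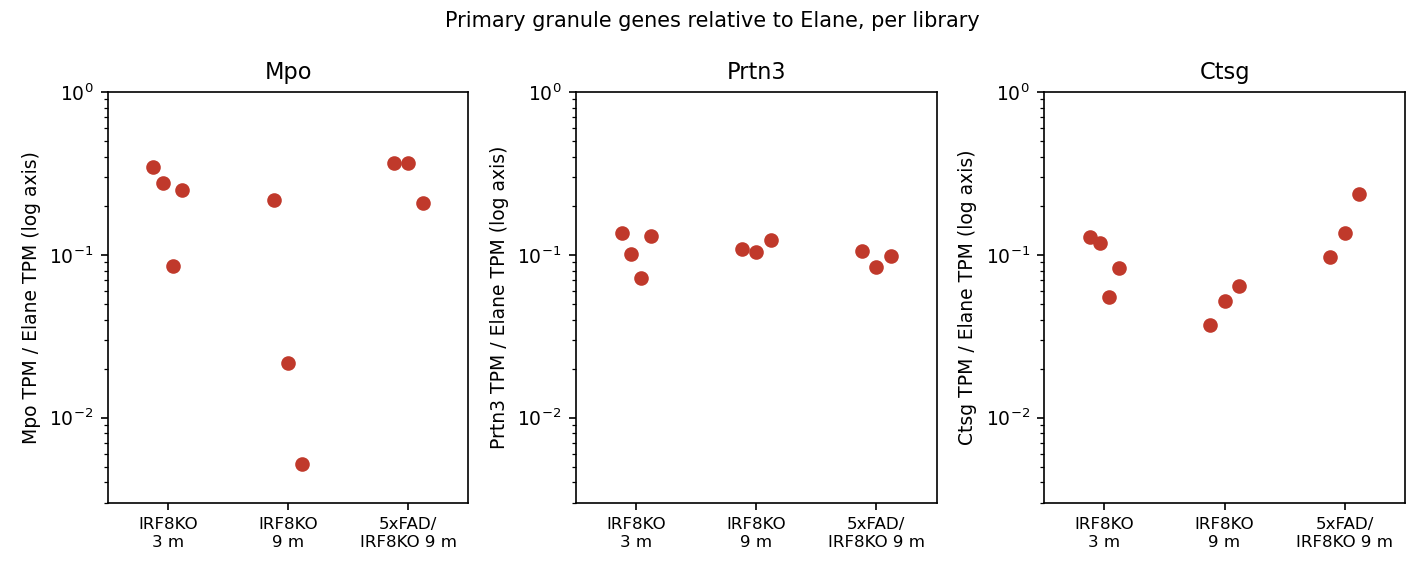
TPM of Mpo, Prtn3 and Ctsg divided by the TPM of Elane (vertical axes, log scale), 1 point per library, in IRF8KO at 3 months, IRF8KO at 9 months and 5xFAD/IRF8KO at 9 months. Prtn3 keeps within 0.0719 to 0.136, whereas Mpo falls to 0.0218 and 0.00521 in 2 libraries of IRF8KO at 9 months.

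Among the secondary genes, Camp and Ngp were at similar proportions in most libraries. The ratio of Camp to Ngp in TPM was 0.583, 0.459, 0.764 and 3.04 in WT at 3 months, so WT replicate 4 had more Camp than Ngp. In the 10 libraries without Irf8 the same ratio ran from 0.299 to 0.630.

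Germline loss of Batf3 was not accompanied by granule RNA. In Batf3KO the counts over 3 libraries were 57 for Ngp, 17 for Lcn2, 16 for Camp and 1 for Ltf, and 0 for the primary and tertiary genes. Ngp was the 1 gene that could be tested, at 22, 19 and 16 counts in Batf3KO and 10, 8 and 10 counts in WT of that experiment. The libraries did not overlap, as for 23.7% of all genes, and the difference did not pass the test (0.89, SE 0.49, adjusted p 0.363), beside 3.83% of all genes called in either direction. It had no unadjusted p under 0.05, and DESeq2 and limma voom did not call it.

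In the conditional knockout, granule RNA was at trace level in both groups. Over the 3 flox libraries there were 2 counts of Elane, 4 of Mpo, 8 of Prtn3 and 0 of Ctsg, and over the 4 Cre libraries 3, 1, 2 and 0. Primary genes were thus not detectable above a few counts with or without Cre. Irf8 was reduced only in part in Cre replicates 2 to 4, at 412, 337 and 485 CPM against 905 to 1140 CPM in flox. Flox replicate 2 stood out in the secondary genes, with 171 counts of Ngp (18.0 CPM), 63 of Camp (6.63 CPM), 44 of Lcn2 (4.63 CPM) and 25 of Ltf (2.63 CPM). Lcn2 was the 1 member tested and was not called (-1.81, SE 1.13, adjusted p 0.732), nor did it have an unadjusted p under 0.05. Over all genes 0.0% were called in either direction, with 1407 of 15512 at an unadjusted p under 0.05, 160 called by DESeq2 and 257 by limma voom. Without Cre replicate 1, the library with undiminished Irf8, 952 genes were called. Lcn2 was then removed by the filter on low counts, so it was not tested there.

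Genes whose pattern was most like each stage were listed by the Pearson correlation of log2(CPM + 1) with the stage mean over the 33 libraries, among 13936 genes that reached a mean of 5 CPM in a group. These values are a description, because the libraries share groups and most are at 0. For the primary stage they were Ms4a3 (r 0.978), Scnn1a (0.974), Ikbke (0.968), Prss57 (0.968) and 1700020L24Rik (0.965). Ms4a3 had a mean of 170 CPM in IRF8KO at 3 months, 144 CPM in IRF8KO at 9 months, 192 CPM in 5xFAD/IRF8KO and 1.58 CPM in WT at 3 months. For the secondary stage they were Wfdc21 (0.996), Pglyrp1 (0.995), Mgst1 (0.994), Hp (0.994) and Anxa1 (0.994), of which Pglyrp1 encodes a peptidoglycan-binding granule protein and Hp haptoglobin. Pglyrp1 had a mean of 577 CPM already in WT at 3 months, against 999.7 CPM in IRF8KO. For the tertiary stage they were Cd177 (0.998), Hdc (0.996), Anxa1 (0.996), Plbd1 (0.995) and Ceacam10 (0.995). Cd177, a surface protein of neutrophils stored in granules, had a mean of 236 CPM in WT and 1725 CPM in IRF8KO at 3 months.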

How the data were processed

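For sorted mouse microglia, cDNA was made with SMART-Seq v4, tagmented (Nextera XT) and sequenced as paired ends, per the labels' protocols. There are no molecular identifiers, so intervals and floors cover counting error only. The authors deposited whole-number counts of reads per gene for each of 33 libraries, without normalization. The submitters' processing notes name bcl2fastq, STAR 2.5.2b, Picard 2.17.11, Subread with featureCounts, and the mm10 build. The layout of the files is that of STAR gene counts, with 1 column ignoring strand, used here because each strand column held 49.5% to 50.1% of stranded reads. The 4 summary lines for reads outside genes were left out, and gene counts were 47.3% to 78.6% of all reads. Of 54146 gene identifiers, 52480 had the same version in GENCODE M21, 54079 matched without the version, and 67 did not match.

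Tests used edgeR 4.0.16 in R 4.3.3 (quasi-likelihood test, default filter on low counts, TMM factors, Benjamini-Hochberg adjustment over all genes tested, threshold 0.05). The 12 libraries of 9 months shared 1 model, and every other fit held the groups it compared. Alternatives were DESeq2 1.42.0, limma 3.58.1 (voom with quality weights), other scaling factors, no filter, 1 model of all 33 libraries, a replicate block and leaving out each library. Members and lists were chosen with earlier results of these data known. In each list, the called genes with the 2 largest changes were named at each age, together with all members, Irf8 and Batf3, and the 5 genes most like each stage. Some genes that this rule names are not reported here. Replicate numbers were not taken as pairs. Separate culture or litter is not given, so p-values measure the spread between these samples. Stage summaries used CPM or TPM and carry no test.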

Additional observations from a re-analysis of the deposited data

Results flagged for a closer look

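Among groups of 4 libraries, 25 gene and group combinations were checked with Dixon's test for a library far from the other 3. For normally spread values chance flags about 1 in 20, but this rate does not hold where libraries are at 0. With only 1 of the 4 libraries above 0, as for Prtn3 and Ctsg in WT, the flag is fixed in advance. In WT at 3 months, replicate 3 stood apart with Prtn3 at 1.01 CPM and Ctsg at 0.378 CPM, where the other WT libraries had 0. In IRF8KO at 3 months, replicate 2 stood apart with Lcn2 at 7879 CPM, where the others had 3626 to 4315 CPM. In the library labelled Cre replicate 1, which did not show the loss of Irf8, Ngp was at 1.00 CPM, Mmp8 at 1.22 CPM and Mmp9 at 0.778 CPM, above the other Cre libraries, from 9, 11 and 7 counts.

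The effect of the germline knockout differed between 9 and 3 months for the 4 secondary and 2 tertiary genes in edgeR's quasi-likelihood test. The adjusted p was 2.35e-05 for Ltf, 6.05e-06 for Camp, 6.64e-06 for Ngp, 6.64e-06 for Lcn2, 4.83e-05 for Mmp8 and 6.9e-05 for Mmp9. The WT groups of the 2 ages differed in red blood cell and neutrophil RNA, and the part of that difference was not tested.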

How the results depend on the processing

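Of 171 counts of granule genes called under an alternative setting, 164 stayed within 1.5 times the count reported. Many of these could hardly move, because 1 or both groups compared were at or near 0 counts. A fall from 7 to 5 also stays within 1.5 times, so a count can hold although the Ltf or Mmp8 call is lost. For IRF8KO against WT at 3 months, 7 genes were reported, limma voom called 3 (Ltf, Mmp8 and Mmp9), no filter on low counts called 8, and leaving out 1 library gave 5 to 7. For 5xFAD/IRF8KO against IRF8KO, 0 were reported, no filter gave 5, DESeq2 1, and leaving out 1 library 0 to 1. For WT of the IRF8KO against WT of the Batf3KO experiment, leaving out 1 library gave 6 to 7 in place of 7. No filter also gave 2 for Cre against flox and 1 for IRF8KO at 9 against 3 months, where DESeq2 gave 1. The stage difference in WT at 3 months moved from -10.63 to -13.13 with a pseudocount of 0.1. In IRF8KO at 9 against 3 months, leaving out 1 library gave -1.55 to 0.44 for Elane, -1.56 to 0.20 for Prtn3 and -1.07 to 0.17 for Mmp8, which reversed without IRF8KO replicate 2 (0.06) or 3 (0.17) of 9 months. The cause of each change was not tested. The replicate block left the count at 7 genes at 3 months and 10 at 9 months and changed no other count of granule genes. The labels give no shared source for a number, and at 3 months the correlations of same-numbered deviations were -0.071, 0.223, 0.234 and 0.138, not all above 0.1, with 2 of 4 numbers matching best. Without a filter, Mpo was called for the difference of effects (adjusted p 0.000584).

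Over all genes, IRF8KO against WT at 3 months gave 970 called genes, 1655 without a filter, 2569 with DESeq2, 1680 with voom, 3300 with 1 model of all libraries and 305 to 1128 when 1 library was left out. At 9 months 4136 became 6836 with 1 model and 2266 to 4576 with 1 library left out. For 5xFAD/IRF8KO against IRF8KO, 24 became 320 without a filter, 861 with DESeq2, 1452 with 1 model, 0 with voom, the block or only these groups, and 0 to 140 with 1 library left out. For IRF8KO at 9 against 3 months, 96 became 46 with library size alone, 467 without a filter, 1600 with DESeq2, 162 with voom, 2530 with 1 model, 0 with the block and 0 to 236 with 1 library left out. For Cre against flox, 0 became 618 without a filter, 160 with DESeq2, 257 with voom and 3 with 1 model. For 5xFAD against WT, 290 became 25 with library size alone, 163 without a filter, 830 with DESeq2, 3821 with voom, 105 with the block, 806 with 1 model and 2 to 364 with 1 library left out. For Batf3KO against WT, 503 became 998, 822, 984, 216 and 10 under no filter, DESeq2, voom, the block and 1 model. For 5xFAD/IRF8KO against 5xFAD and for the difference of effects, 1 model gave 6783 in place of 4054 and 6342 in place of 3717.

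WT at 9 months was shallow, so folds against its zero sums are lower bounds.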
